A study of Mus musculus with 2 samples.

Results

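Of 11895 windows of 200 kb on chromosomes 1 to 19, 205 held no DNase-seq peak in either of 2 libraries of mouse calf muscle, which is 1.72% of the windows and 41 Mb. These closed windows were cut without overlap from the first base of each chromosome of the mm10 build, were kept when under 10% of their bases were unknown, and were selected on the peak calls, in that no peak of the wider deposited peak set of either library overlapped them. The absence of peaks is therefore the rule of choice and not a result. In the sequence and the GENCODE M21 annotation, which the rule did not use, the closed windows differed from windows with peaks as a whole. They were poorer in GC, richer in repeats and poorer in coding genes. Windows with 1 or 2 peaks had near medians of GC and repeats, and fewer coding gene starts per Mb than the closed windows. Of the 235 coding genes that start in closed windows, 103, or 43.8%, encode odorant or pheromone receptors and lie in 26 of the windows. The wider class of chemosensory genes makes up 7.35% of all coding genes.

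DNase I cuts DNA where it is not covered by nucleosomes, and sequencing the cut ends maps open chromatin. The tissue was gastrocnemius, the large calf muscle, of male B6CASTF1/J mice aged 10 days, a hybrid strain that carries CAST alleles beside the B6 ones. The single group held 2 libraries, biological replicates 1 and 2 with technical replicate number 1 each. Both samples have the same donor record and name 3 males each, and whether tissue was pooled is not stated, so differences between the libraries measure only the spread between these samples. With 1 group and 2 libraries no test between conditions was possible, and all comparisons of windows are descriptions.

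Open chromatin gathers at promoters and enhancers. Large families of tissue-specific genes, such as the receptors of the nose, lie in tandem arrays that are kept silent in other tissues, and such arrays have often grown by duplication, which leaves near-identical copies. A short read from a stretch that is identical in several copies cannot be placed at a single position. Each window was also described by how many of its 32-base words, sampled every 1000 bases, occur once in the genome.

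Promoter bases of the families with most genes in closed windows are shown for their few CpG dinucleotides. They are the 250 bases before the RefSeq start on GRCm38.p6, and capitals mark CpG dinucleotides. RefSeq entries existed for 152 of the 235 coding genes, and Gm21541, the first predicted gene of its run, is named only. The first is from an olfactory receptor gene, chr2:90002158-90002407 on the plus strand. Its RefSeq start lies 2263 bases downstream of the GENCODE gene start, so these bases lie inside the GENCODE gene. The second is a vomeronasal type 1 receptor gene, chr7:21832101-21832350 on the plus strand, and the third a vomeronasal type 2 receptor gene, chr6:123308083-123308332 on the plus strand.
Olfr1262: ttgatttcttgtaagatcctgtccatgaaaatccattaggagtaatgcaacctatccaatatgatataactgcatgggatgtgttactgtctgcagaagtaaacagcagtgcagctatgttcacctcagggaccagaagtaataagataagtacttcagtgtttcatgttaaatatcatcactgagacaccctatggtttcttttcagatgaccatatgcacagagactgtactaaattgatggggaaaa
Vmn1r135: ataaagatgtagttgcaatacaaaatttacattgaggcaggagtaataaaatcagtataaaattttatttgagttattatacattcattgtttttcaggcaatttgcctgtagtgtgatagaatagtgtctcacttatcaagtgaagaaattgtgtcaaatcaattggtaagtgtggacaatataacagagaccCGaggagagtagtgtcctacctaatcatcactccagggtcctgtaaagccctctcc
Vmn2r19: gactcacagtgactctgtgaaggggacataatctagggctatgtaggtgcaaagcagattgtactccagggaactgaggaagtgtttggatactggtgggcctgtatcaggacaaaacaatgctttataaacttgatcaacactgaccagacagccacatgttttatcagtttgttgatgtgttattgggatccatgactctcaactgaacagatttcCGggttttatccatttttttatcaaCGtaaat
These held 0, 1 and 2 CpG dinucleotides in 250 bases. The promoters of the 2 genes with the highest CpG ratio in closed windows are shown for contrast. Entpd4b, a copy of a nucleotidase gene, lies at chr14:69555151-69555400 on the plus strand and held 21. The predicted gene Gm16867, at chr14:69503795-69504044 on the minus strand, held 3, at a RefSeq start 432 bases from the GENCODE start around which its ratio was computed.
Entpd4b: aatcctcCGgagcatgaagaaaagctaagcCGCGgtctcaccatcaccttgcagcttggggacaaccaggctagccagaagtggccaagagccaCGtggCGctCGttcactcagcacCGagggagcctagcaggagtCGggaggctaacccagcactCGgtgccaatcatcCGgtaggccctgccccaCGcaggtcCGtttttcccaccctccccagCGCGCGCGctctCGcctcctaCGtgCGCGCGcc
Gm16867: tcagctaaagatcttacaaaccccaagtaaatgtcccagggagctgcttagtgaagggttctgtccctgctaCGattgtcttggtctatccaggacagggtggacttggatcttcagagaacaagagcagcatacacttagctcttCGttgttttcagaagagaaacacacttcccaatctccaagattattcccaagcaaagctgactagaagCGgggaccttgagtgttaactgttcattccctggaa

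How close the copies are is shown by neighbours of Vmn1r135 in the same 600 kb run. Compared base by base without gaps over the same 250 positions, Vmn1r137 was 99.2% identical to Vmn1r135, Vmn1r143 98%, Vmn1r139 96% and Vmn1r138 92.4%. The bases of Vmn1r139, chr7:22096617-22096866, also lie inside the GENCODE gene, which starts at 22069057. Capitals mark the bases of Vmn1r137, chr7:21994337-21994586 on the plus strand, and of Vmn1r143, chr7:22189127-22189376 on the plus strand, that differ from Vmn1r135.
Vmn1r137: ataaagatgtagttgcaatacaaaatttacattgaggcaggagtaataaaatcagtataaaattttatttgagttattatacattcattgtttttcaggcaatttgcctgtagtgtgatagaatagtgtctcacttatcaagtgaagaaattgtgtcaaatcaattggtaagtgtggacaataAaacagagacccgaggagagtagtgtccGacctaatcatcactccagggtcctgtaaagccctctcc
Vmn1r143: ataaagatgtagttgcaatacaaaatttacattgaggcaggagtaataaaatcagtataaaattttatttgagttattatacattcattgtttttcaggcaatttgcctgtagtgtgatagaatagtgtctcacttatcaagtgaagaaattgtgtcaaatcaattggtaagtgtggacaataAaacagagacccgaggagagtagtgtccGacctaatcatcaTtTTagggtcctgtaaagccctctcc
The differences number 2 in Vmn1r137 and 5 in Vmn1r143, of 250 bases each. Vmn1r142 is left out, since only 34% of its bases matched without gaps and gapped alignments were not made.

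Each library alone left more windows without a peak than both together. Replicate 1 had no peak in 638 windows, 5.36% of all, and replicate 2 in 599 windows, 5.04%. The 205 closed windows were 32.1% of the first set and 34.2% of the second. In the 433 windows without a peak in replicate 1 but with peaks in replicate 2, the 851 peaks had a median value of 0.200, against 0.728 over all peaks of replicate 2, and 5 lay above that median. In the 394 windows with the opposite pattern, the 696 peaks of replicate 1 had a median of 0.196, against 0.740 over all its peaks, and 0 lay above it. The windows that only 1 library left without peaks thus differed by low peaks. Peak values are signals scaled to depth, in steps of 0.00544 in replicate 1 and 0.00587 in replicate 2, and a step read as 1 tag puts the median peak at 136 and 124 tags.

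The threshold is 1 peak. Just inside it, the closed windows held few bases with a cut-rate false discovery rate under 0.05, called listed bases here. Replicate 1 had such bases in 51 closed windows, 1223 bases in all, and replicate 2 in 53 windows, 1074 bases in all. Listed bases of both libraries occurred in 13 closed windows, of replicate 1 alone in 38, of replicate 2 alone in 40 and of neither in 114. The lowest rate in a closed window was 0.0255 in replicate 1 and 0.0251 in replicate 2, and no footprint of either library lay in one. Windows with peaks had a median of 1882 listed bases in replicate 1 and 2544.5 in replicate 2. In windows with 1 peak the medians were only 42 and 45.5, and single closed windows had up to 114 and 49. Listed bases and footprints come from the same libraries as the peaks of the rule, so they are no independent measure.

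Just outside the threshold, 406 windows, 3.41% of all, held exactly 1 peak over both libraries. The peak was in replicate 1 in 204 of them, with a median of 36 tags and a range of 11 to 71. It was in replicate 2 in 202, with a median of 30 and a range of 8 to 626. The highest was the peak of replicate 2 at chr3:33799681-33799980, with a value of 3.67, which lies 2 bp from the start of Ttc14 and at the edge of its window. The next were 0.558 at chr16:53675321-53675500, 0.522 at chr18:72730201-72730340 and 0.405 at chr6:102651601-102651780, all in replicate 2, and 0.386 at chr7:38488541-38488677 in replicate 1. Their nearest coding gene starts were those of Alcam, Dcc, Cntn3 and Gm5591, at 1221, 379, 78.6 and 39.6 kb. Apart from the Ttc14 promoter, these peaks were below the median of their library.

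With the wider peak sets most closed windows stood alone, which turned with fewer peaks. They formed 185 runs of consecutive windows, of which 167 had 1 window, 16 had 2 and 2 had 3, so the longest run was 600 kb. Runs of at least 2 windows held 38 closed windows, 18.5%. With the stricter peak sets this share was 73.2%, and without the lowest 10% of peaks 73.7%, with a longest run of 3800 kb in both. In 23 cases a single window separated a run from the next. Grouping windows under 1 Mb apart gave 138 groups, of which 16 had at least 3 windows and the largest had 8.

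Stretches between peaks, measured without a window grid, were longer than the runs show. The 167885 stretches had a median of 4.66 kb, and 546 had at least 200 kb of known sequence, 152 Mb in all. A closed window lay in 181 of these, since a stretch holds one only when it spans a whole window of the grid. There were 137 stretches of at least 300 kb, 46 of at least 400 kb, 15 of at least 500 kb and 9 of at least 600 kb. The longest by span and by known sequence, chr2:175141997-176708400, spanned 1566 kb with 1216 kb known and held 24 coding gene starts. Among them were Zfp968, Zfp965 and Zfp969, zinc finger genes, and predicted genes such as Gm14391. Ranked by known sequence, rank 5 was chr3:112006941-112670570, which spanned 664 kb without a coding gene start. In its 2 closed windows 79% of the words occurred once.

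Repeated sequence and runs went together. Under 50% of the words occurred once in 50 closed windows, 24.4%, against 2.77% of all windows, and 26 of the 38 windows in runs had so few, against 24 of the 167 lone windows. The 50% limit was chosen after the values were seen. The 3-window run chr4:41800001-42400000 had 12 coding gene starts and 1.33% of words found once. Its genes include Gm21541, Gm20878, Fam205a4, Gm21093 and Gm3893 and, named after its values were seen, Ccl21b, a chemokine that guides lymphocytes to lymph nodes. The other 3-window run, chr7:21800001-22400000, had 15 coding gene starts and 0.333% of words found once. By symbol, 6 were vomeronasal type 1 receptors, from Vmn1r135 to Vmn1r143, and 9 were predicted genes such as Gm5725 and Gm5891. Whether the predicted genes are receptors as well was not tested, and Gm5725 is as long as Vmn1r135, 0.924 kb. A word of the first run had a median of 6 copies in the genome and one of the second 13.

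The next runs by length were the 16 of 2 windows. Ties were taken in genome order, so the 10 longest leave out equally long runs on chromosomes 6, 7, 9 and 10. Those left out on chromosome 7 held vomeronasal receptor or secretoglobin genes, with 1.5 to 13.25% of words found once. The runs kept were of 2 kinds. The run chr2:90000001-90400000 held 13 olfactory receptor genes, among them Olfr1262, Olfr1263, Olfr1264, Olfr1265 and Olfr140, with 42% of words found once. The run chr2:175600001-176000000 held Gm11007, Zfp969, Gm2007, Gm14288, Gm6710 and Zfp966, and 0% of its sampled words occurred once. The runs chr5:94200001-94600000 and chr5:95200001-95600000 held 6 and 5 coding gene starts, mostly predicted genes, such as Gm3106 and Gm10424, with 7.75% and 7.5%. The other 4 of the 10 longest had no coding gene start. Of those, chr2:100400001-100800000 had 17% of words found once with a median of 2 copies, and the runs chr3:112200001-112600000, chr3:125000001-125400000 and chr5:59200001-59600000 had 79%, 84.8% and 81.2%. Of all runs of at least 2 windows, 6 had no coding gene start.

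**Figure D1:**
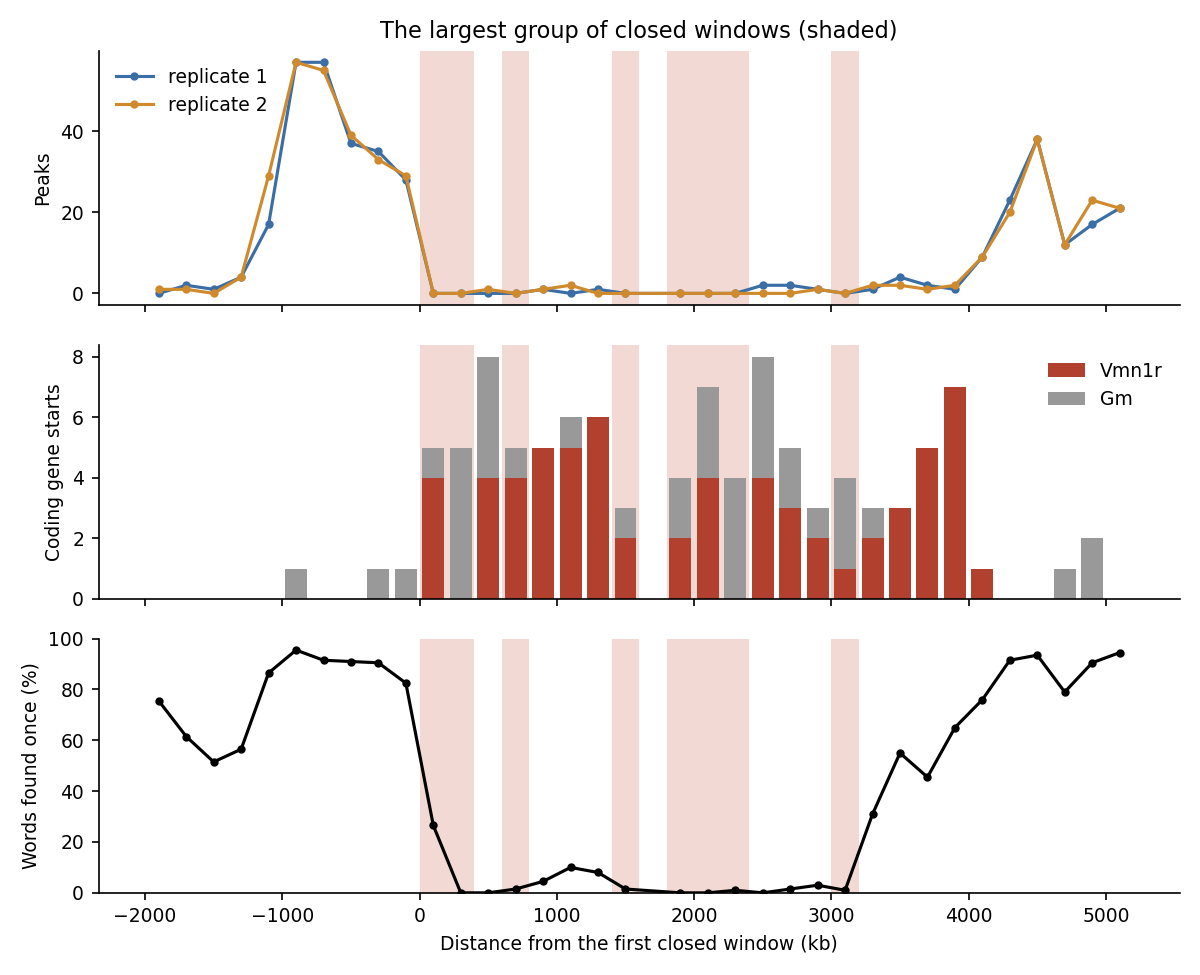
Peaks per 200 kb window in each library, coding gene starts and the percentage of words found once, against the distance in kb from the first closed window of the largest group, with its closed windows shaded. Between the shaded windows the 7 windows with peaks hold at most 2 peaks in each library, and 1 window is not drawn because of unknown bases.

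The largest group of closed windows lay at chr7:20000001-23200000 and is a vomeronasal type 1 receptor array. These receptors detect pheromones in the vomeronasal organ. In its span 8 of 15 kept windows were closed and held 17 Vmn1r and 20 predicted coding gene starts, out of 46 and 32 in the span. The other 7 windows had 0 to 2 peaks in replicate 1 and 0 to 2 in replicate 2. At most 26.5% of words occurred once in its closed windows and at most 10% in the others. The low word shares moved with the low number of peaks over the array, and their part in it was not tested. Beside the group, where more words were found once, some windows had few peaks and others many. The window 3800 kb from the first closed one, with 7 Vmn1r starts and 65% of words found once, had 1 peak in replicate 1 and 2 in replicate 2. The window that begins 2000 kb before the first closed one, with 0 Vmn1r starts and 75.5%, had 0 and 1. The window 4000 kb from the first closed one, with 76%, had 9 and 9. The window that begins 1000 kb before it, with 95.5%, had 57 and 57.

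The second group, 7 windows at chr7:8600001-11400000, held 5 vomeronasal type 2 receptor genes. It also held 3 of the 8 Zscan4 genes, 37.5%, which are expressed in early embryos. A group of 5 lay at chr5:94200001-95600000 and groups of 4 at chr2:175200001-177000000, chr4:41800001-42800000 and chr7:31800001-33000000, the last with 3 secretoglobin genes, which encode secreted proteins of glands. In all of these, each closed window had under 50% of words found once. A further group of 4, chr17:59600001-61200000, differed: it held no coding gene start and no window with so few.

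**Figure D2:**
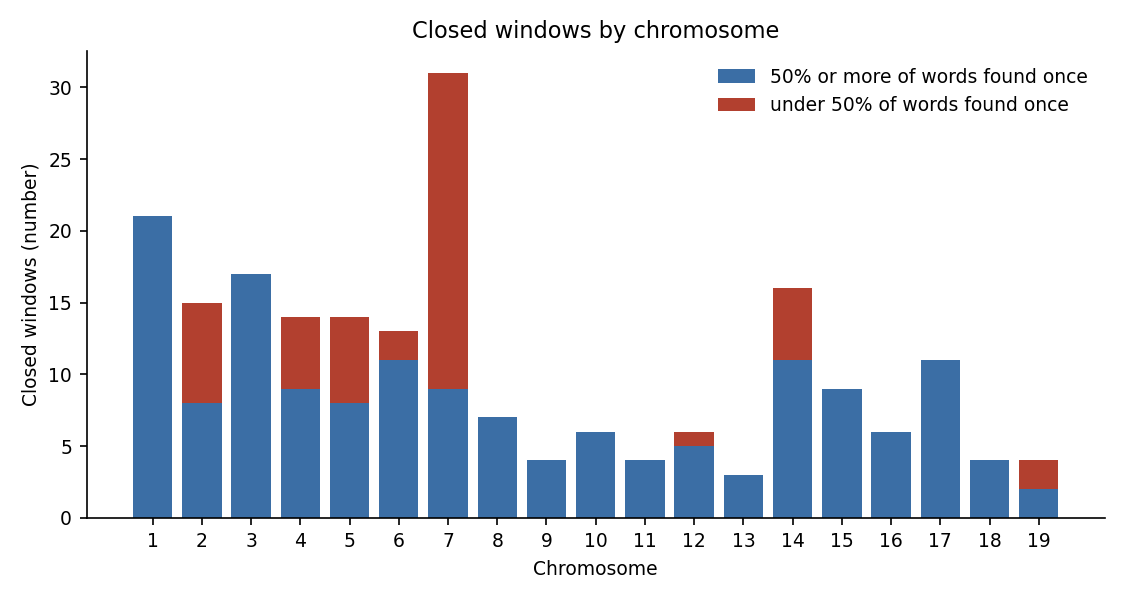
Number of closed windows on each chromosome, split by whether 50% or more or under 50% of their words occur once. Chromosome 7 has 31 closed windows, 22 of them with under 50%, and chromosome 13 has 3.

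Chromosome 7 had the most closed windows, 31 or 4.42% of its windows, and 22 of them had under 50% of words found once. Chromosome 13 had the fewest, 3 or 0.515%. Repeated windows were not always closed. Chromosome 13 had 32 windows with under 50% of words found once, of which 0 were closed, and chromosome 12 had 38, of which 1 was closed. From the centromere outwards, 2.23, 1.56, 1.92, 1.84 and 1.06% of the windows in 5 equal parts of the chromosomes were closed.

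**Figure D3:**
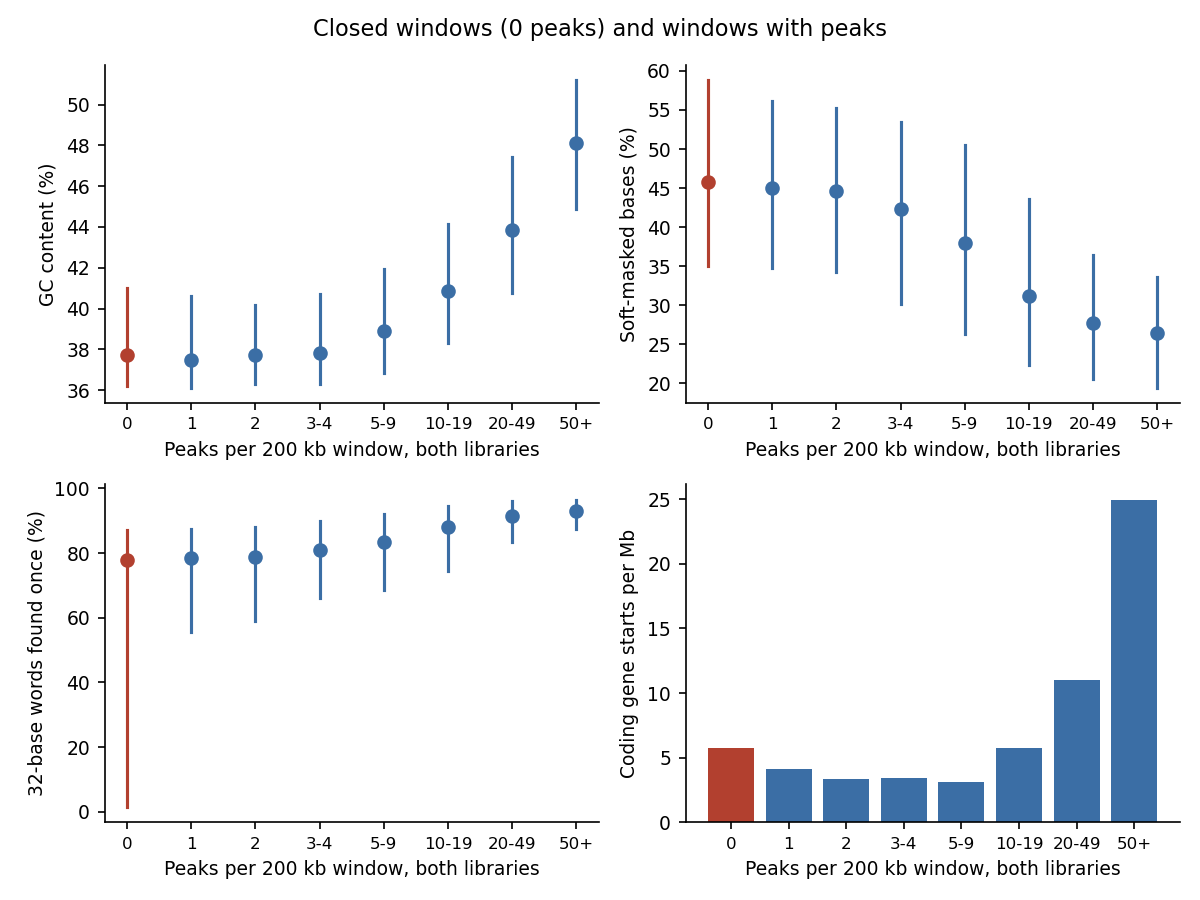
GC content, soft-masked bases and words found once as medians (points) with the 10th to 90th percentile of windows (lines), and coding gene starts per Mb (bars), by the number of peaks per window in both libraries. Closed windows (0 peaks) have a median GC content of 37.7% and windows with 1 peak 37.5%.

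The closed windows were AT-rich and repeat-rich. Their median GC content was 37.7%, against 41.6% in windows with peaks, and the ratio of observed to expected CpG was 0.144, against 0.183. Soft-masked bases, the repeats marked in the assembly, made up 45.8%, against 31.4%. The median share of words found once was 78%, against 88.5%. GC content and words found once were lower, and soft-masked bases higher, in closed windows on 19 of 19 chromosomes. Windows with 1 peak had near medians, 37.5% GC, 45% soft-masked bases and 78.5% of words found once, but a smaller repeated part. Under 50% of words occurred once in 24.4% of closed windows and in 8.37% of windows with 1 peak, and the 10th percentile was 1.5%, against 55.5%.

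The extremes show how wide the set is. The lowest GC content, 34.7%, was in chr15:48200001-48400000, inside Csmd3. The highest, 48%, was in chr4:42600001-42800000, which holds Ccl27b, Ccl19 and Ccl21a, chemokine genes, and Il11ra2, a copy of an interleukin receptor gene. Words found once ran up to 93.5%, in chr11:37800001-38000000, and down to 0%, as in chr2:175200001-175400000.

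**Figure D4:**
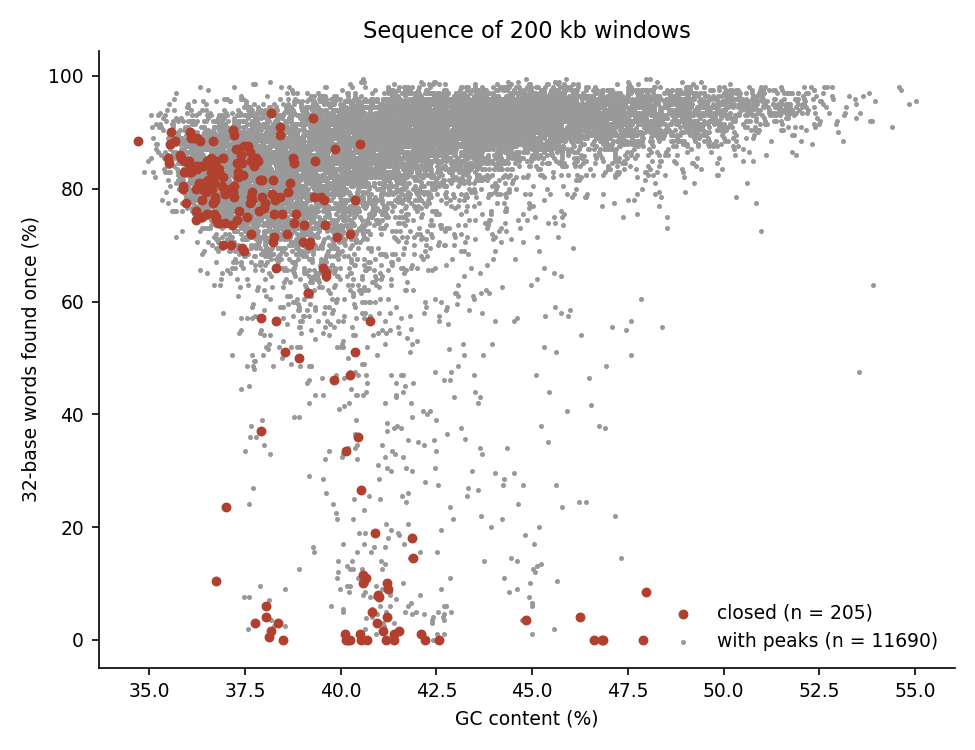
GC content (%) against the percentage of 32-base words found once, one point per 200 kb window, closed windows in red and windows with peaks in grey. The closed windows fall in a cloud at low GC content and a second one near 0%, where 50 of the 205 have under 50% of words found once.

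The set had a repeated and a unique part. The 50 closed windows with under 50% of words found once had a median of 3.25%, a GC content of 40.8% and 130 coding gene starts, or 13 per Mb, with 18.8 pseudogene starts per Mb. The 155 others had 80% of words found once, a GC content of 37.3% and 105 coding gene starts, or 3.39 per Mb. Of these 155, 127 had no coding gene start and 40 had no annotated gene start of any class. Their median distance to the nearest coding gene start was 454 kb. Windows with peaks had 11.6 and 8.63 coding gene starts per Mb in the same 2 classes. Of the 114 closed windows without a listed base in either library, 44 were among the 50.

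Over all closed windows, coding genes were sparse. There were 5.73 coding gene starts per Mb, against 8.71 in windows with peaks, and the value was lower in closed windows on 16 of 19 chromosomes. No coding gene started in 137 closed windows, 66.8%, against 42.9% of windows with peaks. The median distance to the nearest coding gene start was 304 kb, against 71.8 kb. Coding gene bodies covered 15.3% of a closed window on average, against 42.5%, and 123 closed windows had none. The rates were 1.54 long noncoding gene starts per Mb, against 5.32, but 8.24 pseudogene starts per Mb, against 4.74. Windows with few peaks had fewer coding gene starts per Mb than the closed windows. The values were 4.14 with 1 peak, 3.34 with 2, 3.44 with 3 to 4 and 3.13 with 5 to 9. Windows with 10 to 19 peaks had 5.73.

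Of the coding genes of chromosomes 1 to 19, 235 of 20807 started in a closed window, 1.13%. The share was 1.37% of all annotated genes (700 of 51229), 2.92% of pseudogenes (338 of 11594), 4.25% of immunoglobulin and T cell receptor segments (21 of 494), 0.584% of microRNAs (12 of 2054), 0.849% of other small RNAs (31 of 3650) and 0.499% of long noncoding genes (63 of 12630). The segments were 15 of 115 Ighv and 6 of 100 Igkv genes, which are joined to make antibody chains in B cells, and 0 of 108 Trav genes. The 235 genes lay in 68 of the closed windows.

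**Figure D5:**
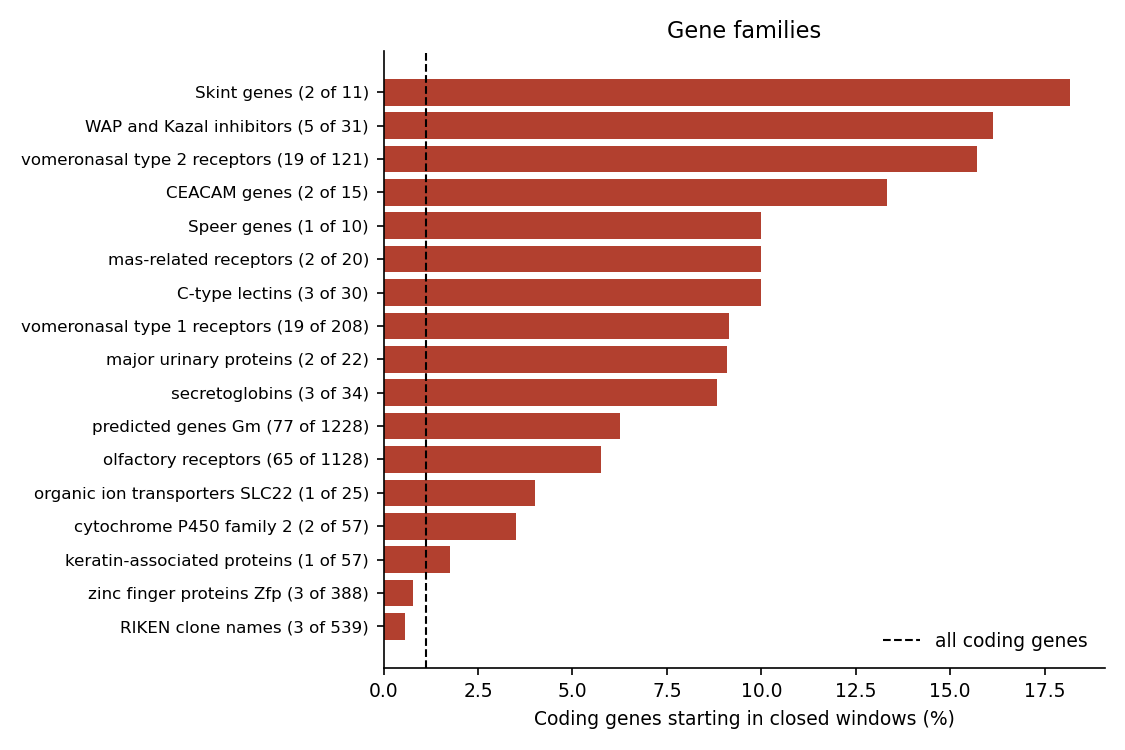
Percentage of the coding genes of a family that start in closed windows, for the 17 families with at least 10 coding genes and at least 1 such gene, with counts beside the names and the 1.13% of all coding genes as a dashed line. Skint genes (2 of 11) are highest at 18.2%, vomeronasal type 2 receptors (19 of 121) are at 15.7% and zinc finger genes (3 of 388) at 0.773%.

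Olfactory and vomeronasal receptors, which detect odours and pheromones in the nose, supplied 103 of the 235 genes, 43.8%. They belong to a chemosensory class of 1529 genes, 7.35% of all coding genes. Families were assigned by gene symbol, so genes with only predicted names are outside this class whatever they encode. That class also holds 15 trace amine-associated, 35 bitter taste and 7 formyl peptide receptors and 15 exocrine gland-secreted peptides, of which 0 started in closed windows. Of the olfactory receptor genes 65 of 1128 started in closed windows, 5.76%. They lay in 8 of the 202 windows with an olfactory receptor start, 3.96%, beside 1.72% of all windows that were closed. These 8 were on chromosomes 2 and 7, and 1 had under 50% of words found once. The window with most coding gene starts, chr2:85800001-86000000, had 13 of them, all olfactory receptors from Olfr1016 to Olfr1031, and 81% of its words occurred once. Of the vomeronasal type 1 receptors 19 of 208, 9.13%, started in 7 closed windows, all on chromosome 7 and all with under 50% of words found once. Of the vomeronasal type 2 receptors 19 of 121, 15.7%, started in 11 closed windows on chromosomes 6, 7 and 17, of which 4 had so few. By windows with a start of the family, the type 1 share was 7 of 64, 10.9%, and the type 2 share 11 of 70, 15.7%. The olfactory receptor windows with peaks had a median of 5 peaks. The count of 65 olfactory receptor genes depended on low peaks: it was 163 to 234 with 1 library, 529 without the lowest 10% of peaks and 595 of 1128 with the stricter peak sets.

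No family of at least 10 coding genes reached 20% of its members, the limit for naming a family, so the families below were chosen after their values were seen. Of 57 such families, 17 had a gene in a closed window and 40 had none. The classes below hold only listed families, assigned by symbol, and not all genes of their kind. With smaller families included, 10 of 252 genes of secreted proteins started in closed windows, 3.97%, beside 1.13% of all coding genes. The shares were 2.66% of immune (5 of 188), 3.17% of placental (2 of 63) and 5.13% of germ line genes (4 of 78). In the liver and gut, neuronal and skin classes they were 1.47% (3 of 204), 0.778% (2 of 257) and 0.704% (1 of 142). Genes of secreted proteins included 5 Spink genes, which encode protease inhibitors, all in 1 window, of 31 WAP and Kazal inhibitor genes, 16.1%. Others were 3 of 34 secretoglobin genes, 8.82%, and 2 of 22 major urinary protein genes, Mup18 and Mup19, whose products carry pheromones in urine. Immune genes included Clec4n, Clec4d and Clec4e, lectin receptors of myeloid cells, 3 of 30 C-type lectin genes. They also included Skint1 and Skint4, 2 of 11 Skint genes, 18.2%. Ceacam11 and Ceacam14, Cyp2c67 and Cyp2c68, Mrgpra2a and Mrgpra2b, Slc22a28, Speer2 and Krtap20-2 also started in closed windows. Of the zinc finger genes named Zfp, 3 of 388 did, 0.773%, namely Zfp966, Zfp968 and Zfp969. A further 80 genes had only predicted or RIKEN clone names, and 22 were in no family. The genes in no family include Ccl19, Ccl21a, Ccl21b, Ccl27b and Il11ra2, which the immune share leaves out. Elavl2 and the Mmp genes named below are likewise outside all classes.

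Among the genes in no family, also named after their values were seen, were Mmp12, Mmp13 and Mmp1b, matrix metalloproteinases that cut extracellular proteins, in 1 window of chromosome 9 with 78.5% of words found once. Others were Cylc2, a protein of the sperm head, Atp10b, a lipid transporter, and Mgat4c, an enzyme of glycan synthesis. The Mgat4c window also holds Mir3059, the only one of the 12 microRNA genes with mature sequences in the RefSeq table, at chr10:101772704-101772725 and chr10:101772740-101772761 on the plus strand of GRCm38.p6. Its 2 arms are shown with the seed, bases 2 to 8, in capitals.
mmu-miR-3059-5p: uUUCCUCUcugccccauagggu
mmu-miR-3059-3p: cCUCUAGGgaagagaagguugg
The arms do not share a seed.

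The coding gene starts in closed windows were poor in CpG. These are starts of the annotation, and gene models as short as Vmn1r135, at 0.924 kb, may not reach the transcription start. In the 500 bp on either side of the start the ratio of observed to expected CpG had a median of 0.115 for the 235 genes, against 0.574 for the other 20572 coding genes. A ratio over 0.6 was found for 10 genes, 4.26%, against 47.7%. The highest were those of Entpd4b at 0.805, Gm16867 at 0.718, Gm10409 at 0.646, Tmem254c at 0.634 and Gm9780 at 0.613, and in the windows of all 5 genes 0% of sampled words occurred once. Of the 10 genes, 1 lay in a window with at least 50% of words found once. This was Elavl2, an RNA-binding protein of neurons, whose ratio was 0.606.

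Of 5 genes with a coding transcript start outside the closed window, Elavl2 was the 1 with a peak there. Its gene start lay 785 bp inside the edge of the closed window, none of its 11 coding transcripts started in that window, and a promoter peak at another start had a value of 3.46 in replicate 1 and 6.16 in replicate 2. For the other coding genes, no peak of either library lay within 500 bp of any annotated coding start. The rule fixed this for starts inside closed windows, apart from those near an edge, so it is not a result about their promoters. The whole body lay in the closed window for 218 genes. By the rule the nearest peak lay outside the closed window. Its median distance was 167 kb in replicate 1 and 180 kb in replicate 2, and the longest was 819 and 898 kb.

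Some closed windows lay inside genes whose promoters were open. Wholly inside a coding gene lay 12 closed windows, 5.85%, against 8.98% of windows with peaks, 1 in each of 12 long genes. They were Dpp10, Rgs7, Fstl5, Ptprd, Cntnap2, Cntn4, Csmd1, Nkain2, Klhl1, Gpc5, Cdh12 and Csmd3. Gpc5, a heparan sulfate proteoglycan, had a promoter peak of 5.09 in replicate 1 and 5.68 in replicate 2, and 13 and 16 peaks over its 1433 kb. Ptprd, a receptor phosphatase of synapses, had promoter peaks of 2.62 and 3.13 and 36 and 57 peaks over 2271 kb. Csmd1 and Klhl1 had a promoter peak in replicate 1, at 0.348 and 0.245, and none in replicate 2.

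None of the 73 marker genes of 11 tissue and cell type lists found on these chromosomes started in a closed window, which at 1.13% of coding genes is no contrast. The windows of the 20 muscle genes had a median of 27 peaks in replicate 1 and 29.5 in replicate 2, and the lowest had 8 and 11. Of the lists of other tissues, that of 4 photoreceptor genes was as high, with medians of 27 and 35.5. All others were lower in both libraries. The highest of these were 24 and 21 for 3 macrophage genes and 21 and 26 for 7 germ cell genes. The lowest were 9 and 11 for 8 neuron genes and 8 and 11 for 8 hepatocyte genes.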

How the data were processed

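Peaks, footprints and per-position false discovery rates of 2 DNase-seq libraries were used as deposited on mm10, per the labels. For aligner, callers and their versions: not given in the sources used here. Of each pair of peak sets the wider was used. The deposited peak signal was scaled to depth by the authors, in whole steps per the values. The per-position p-value type of number is an FDR as deposited by the authors, listed under 0.05. Footprints were used by position only. Whether reads of CAST alleles mapped less often was not analysed here.

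Windows of 200 kb with under 10% unknown bases (411 of 12306 left out) were closed when no peak overlapped by 1 bp. GC, CpG, soft-masked bases and 32-base words, matched on both strands of chromosomes 1 to 19, X and Y, came from GRCm38.p6, genes from GENCODE M21, with Python 3.11.15, numpy 2.4.6 and numba 0.67.0. Functions were tested on simulated data. Named genes are those of the 10 longest runs (at most 6 a run), families with 20% of members closed, genes around closed windows, closed markers, the 5 highest CpG ratios and the 5 highest lone peaks. The members and lists were chosen with earlier results of these data known. Alternatives covered the peak set, library, window size and place, unknown bases and gene assignment. Tags can include PCR copies, so no counting interval is given.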

Additional observations from a re-analysis of the deposited data

How the results depend on the processing

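Of 97 alternative values for 8 results, 40 stayed within 1.5 times the count or within the spread between the libraries, and 57 did not. Counting a peak by its midpoint, moving the windows by 100 kb, and limits of 1% or 50% on unknown bases left the number of closed windows at 198 to 213. The number of closed windows depends on the peaks used and on window size. It was 1955 with the stricter peak sets, 1723 without the lowest 10% of peaks, 114 with no listed base in place of no peak, 1809 with windows of 100 kb and 1 with windows of 500 kb, and 599 to 638 with 1 library. The longest run was 3800 kb with the stricter sets or without those peaks, 1000 kb with under 50% unknown bases and 1000 to 1400 kb with 1 library.

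The share of windows in runs of at least 2 was 73.2% with the stricter sets, 73.7% without those peaks, 14.6% with moved windows, 38.3% with windows of 100 kb, 0% with 500 kb, 22.1% with under 50% unknown bases and 30.4 to 35.1% with 1 library. Coding gene starts per Mb were 3.79 with the stricter sets, 3.90 without those peaks, 7.98 with no listed base, 4.17 with windows of 100 kb, 26 with 500 kb and 3.89 to 4.97 with 1 library. Coding genes numbered 1481 with the stricter sets, 1345 without those peaks, 754 with windows of 100 kb, 13 with 500 kb and 497 to 595 with 1 library, and 265 when any overlap and 220 when the whole body was required.

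Olfactory receptor genes numbered 595 with the stricter sets, 529 without those peaks, 43 with no listed base, 264 with windows of 100 kb, 0 with 500 kb and 163 to 234 with 1 library. The median GC content was 38.1% with no listed base, 38.0% with windows of 100 kb, 41.0% with 500 kb, 37.6% without those peaks and 37.5 to 37.7% with 1 library. The median of words found once was 79.5% with the stricter sets, 79% without those peaks and with windows of 100 kb, 74% with no listed base, 76.8% with moved windows, 10.6% with 500 kb, 77.5% with under 50% unknown bases and 78 to 78.5% with 1 library. Keeping only windows with at least 50% of words found once, an alternative chosen after seeing the data, left 155 windows and 60 olfactory receptor genes, a share in runs of 6.45%, 3.39 coding gene starts per Mb, 105 coding genes and a GC content of 37.3%. The causes of these shifts were not tested. No paired analysis was possible because there is 1 group. At 1 tag per step the lowest peaks rest on 8 and 6 tags, which limits how firmly a window with 0 peaks differs from one with 1.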
